A study of Mus musculus with 12 samples.

Results

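The mRNAs of 10 proteins that store, move or sense iron were examined in cortical CD11b-positive cells: *Fth1*, *Ftl1*, *Ncoa4*, *Tfrc*, *Slc11a2*, *Slc11a1*, *Slc40a1*, *Cp*, *Ireb2* and *Hmox1*. They were chosen by name for their role in iron handling, with earlier results of these data known. They were looked up among the 55487 genes of the count table through the GRCm38 annotation. All 10 were found, and all 10 were among the 15425 genes with enough counts to be tested. In *App* NL-G-F mice, *Slc40a1* was lower than in WT mice, with log2 fold changes of -1.26 (SE 0.0617, n = 3 per group) under vehicle and -1.17 (SE 0.0616) under treatment, and *Slc11a1* was higher, with 0.96 (SE 0.0535) and 1.14 (SE 0.0536). No change of any of the 10 mRNAs with the treatment, rh Bri2 BRICHOS R221E, passed the test in either strain.

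The cells came from the papain-digested cerebral cortex of 12 male mice and were pulled out with magnetic beads against CD11b, a surface protein of microglia that other myeloid cells carry too. Each library came from 1 mouse, and there were 4 groups of 3 mice: WT mice given PBS (called WT veh here) or the protein rh Bri2 BRICHOS R221E (WT BRICHOS), and *App* NL-G-F mice given PBS (App veh) or the protein (App BRICHOS). The *App* NL-G-F strain is a knock-in whose own *App* locus holds a humanized sequence with mutations of familial Alzheimer's disease. The injected protein is the recombinant human BRICHOS domain of Bri2, a chaperone, with an exchanged residue. Treatment began at 9 months of age and consisted of 24 intravenous injections within 12 weeks, with 10 mg/kg of the protein or with PBS alone, followed by 4 weeks without injection. Both strains had the C57BL/6J background.

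Iron is needed by enzymes of respiration and DNA synthesis, and free ferrous iron drives the formation of oxygen radicals, so cells keep it in ferritin, a shell of heavy and light chains. Transferrin-bound iron enters through the transferrin receptor and leaves the endosome through a divalent metal transporter, while ferroportin is the only known exporter of iron from mammalian cells. Macrophages, and microglia as the macrophages of the brain, also recover iron from heme and from engulfed material. When iron is scarce, the iron regulatory proteins bind a hairpin in certain mRNAs, the iron-responsive element. In the 5′ UTR the bound hairpin blocks translation, and in the 3′ UTR it protects the mRNA from decay. Through this element, iron acts on ferritin and ferroportin at translation and on the transferrin receptor at the level of its mRNA. The counts reported here measure mRNA only.

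The hairpins are printed because they are the element through which the translation or stability of these mRNAs is known to respond to iron. A search of the annotated UTRs on GRCm38 for CNNNNNCAGTGN, in which the first 5 N bases pair with the 5 bases after the loop and G may pair with T, found the element in 4 of the 10 genes. An mRNA form of *Slc11a2* is also known for such an element, and no match to these letters was found there. The same search matched the 5′ UTR of 31 of 20916 genes, or 0.148%, and the 3′ UTR of 129 of 21045 genes, or 0.613%. Each sequence is written 5′ to 3′ on the strand of the gene in DNA letters, with 3 bases on either side of the hairpin and the 6 bases of the loop in capitals. The 3 sequences of 5′ UTRs come first and the 4 of the *Tfrc* 3′ UTR after them.
Fth1, chr19:9982735-9982757, plus strand: ctgcttcaaCAGTGCttgaacgg
Ftl1, chr7:45459782-45459804, minus strand: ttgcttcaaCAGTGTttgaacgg
Slc40a1, chr1:45925468-45925490, minus strand: cttcagctaCAGTGTtagctaag
Tfrc, chr16:32631222-32631244, plus strand: tatcggaagCAGTGCcttccata
Tfrc, chr16:32631601-32631623, plus strand: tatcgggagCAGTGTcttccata
Tfrc, chr16:32631666-32631688, plus strand: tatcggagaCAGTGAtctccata
Tfrc, chr16:32631713-32631735, plus strand: tatcgggaaCAGTGTttcccata
The hairpin lies in the 5′ UTR of 4 of 5 annotated coding transcripts of *Fth1*, 1 of 2 of *Ftl1* and 1 of 4 of *Slc40a1*, and in the 3′ UTR of 1 of 2 of *Tfrc*. No match in the other 6 genes says only that these letters are not in their annotated UTRs. Counts per gene do not separate transcripts, so the share of each mRNA that carries the hairpin was not measured.

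Total counts per library were between 12433402 and 17889654. The 10 microglial markers summed to between 31230 and 36780 CPM in every library. Markers of other cells were present, and several moved with the strain. Of 7 neutrophil markers, 7 were lower in App veh than in WT veh mice and 5 in App BRICHOS than in WT BRICHOS mice. Markers of border macrophages, astrocytes, endothelium, the red cell lineage and the choroid plexus are given beside the genes that those cells are known to express. Those of oligodendrocytes are given beside *Fth1*. In bulk RNA, fewer cells of a type and less mRNA per cell cannot be told apart.

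Levels are given as CPM after TMM normalization, and levels of different genes are compared per kilobase of exon. In WT veh mice, the ferritin chains stood at the top of the 10 genes. *Fth1*, the heavy chain that oxidizes iron, had 1141 ± 223 (SD, n = 3) CPM per kilobase and ranked 26th of the 15425 tested genes, and *Ftl1*, the light chain, had 1083 ± 58.2 and ranked 28th. The values of both chains overlapped between mice, so their order was not resolved. *Hmox1* followed with 80.7 ± 14.1 CPM per kilobase and *Slc11a1* with 68.4 ± 1.55, where the lowest value of *Hmox1* (69.84) was just above the highest of *Slc11a1* (69.83). *Slc40a1* came next with 18.9 ± 0.8 CPM per kilobase, apart from its neighbours on both sides. *Ireb2* had 8.92 ± 0.297, *Tfrc* 7.01 ± 0.383, *Slc11a2* 5.68 ± 0.345, *Ncoa4* 5.47 ± 0.096 and *Cp* 4.30 ± 0.172 CPM per kilobase. Among these 5 genes, only the ranges of *Slc11a2* and *Ncoa4* overlapped between neighbours. *Cp* still ranked 7381st of the 15425 tested genes. Lengths were those of all annotated exons merged, which lowers the value of genes with long or rarely used exons.

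**Figure D1:**
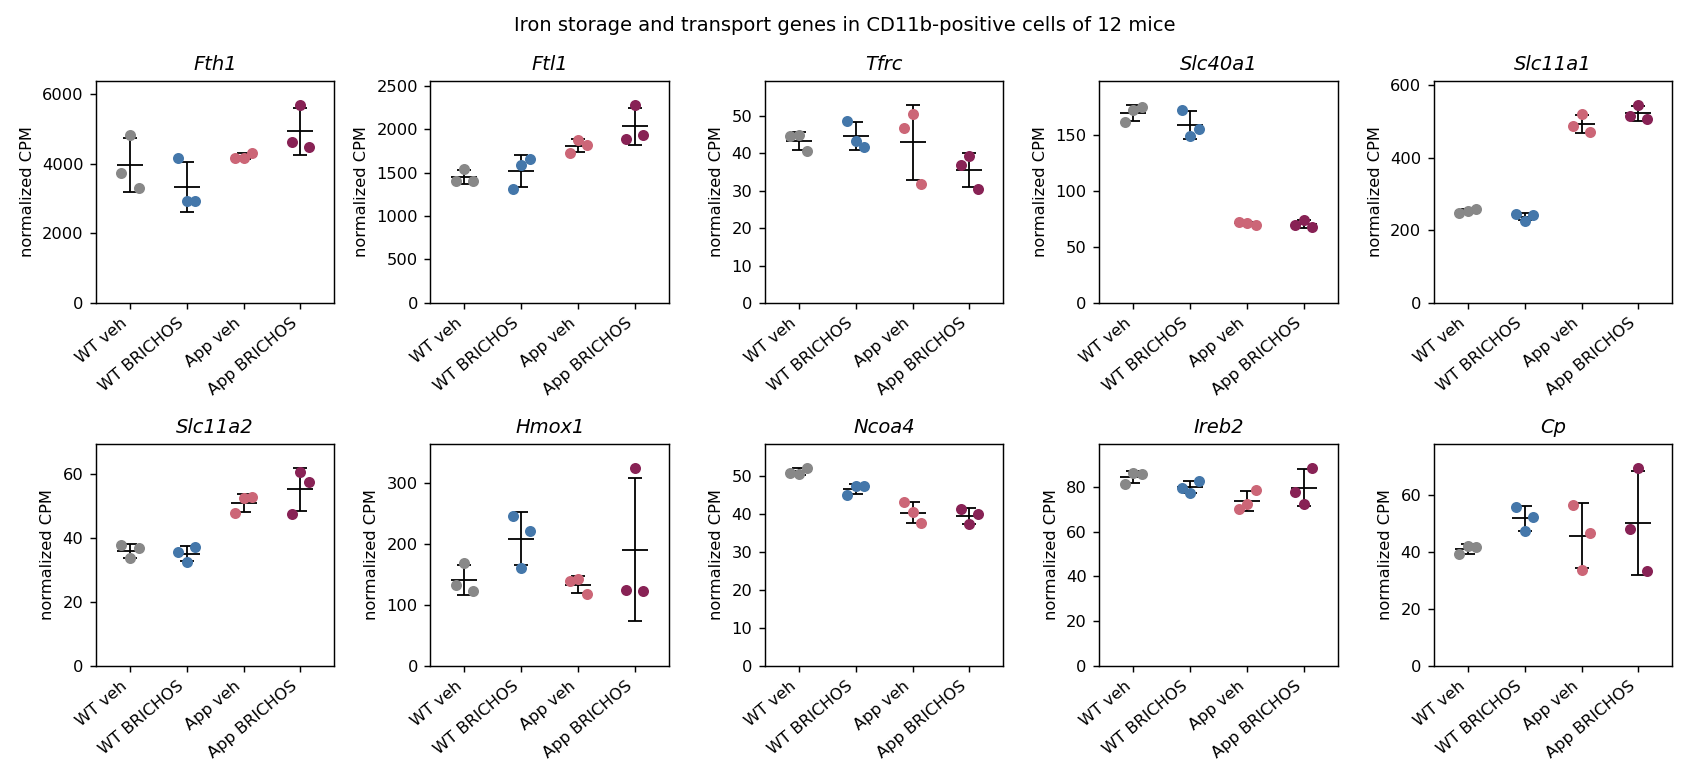
Level of each of the 10 genes in the 12 libraries. Each panel shows normalized CPM on a linear axis from 0, with 1 point per mouse, a horizontal bar at the group mean and an error bar of 1 SD (n = 3). *Slc40a1* and *Slc11a1* separate the strains without overlap in both treatments, and 1 of the 3 App BRICHOS mice lies far above the others for *Hmox1*.

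The first comparison asked how the strains differed under veh. Of the 10 genes, 5 were changed in App veh mice against WT veh mice, 3 upward and 2 downward, at an adjusted p-value under 0.05 in edgeR's quasi-likelihood test. Of all 15425 tested genes, 37% were called in this comparison, 20.1% upward and 16.9% downward, so the count of 5 is read against that share. The median log2 fold change of the 10 genes was 0.04 and that of all tested genes -0.02. Groups did not overlap for 6 of the 10 genes, against 50.9% of all genes, and 6 had an unadjusted p-value under 0.05, against 46.6%.

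*Slc40a1* (ENSMUSG00000025993, chr1:45908068-45926523, minus strand) encodes ferroportin, which carries iron out of the cell. Its level was 162, 172 and 175 CPM in the WT veh mice and 72.3, 71.0 and 69.6 CPM in the App veh mice. The BRICHOS-treated mice had 173, 149 and 155 CPM in WT and 69.2, 74.2 and 68.1 CPM in *App* NL-G-F. All 6 *App* NL-G-F libraries were below all 6 WT libraries, with a wide gap between them. Under veh the log2 fold change was -1.26 (SE 0.0617, 95% interval -1.39 to -1.12, edgeR adjusted p = 4.58e-08), a level 0.418 times that of WT mice. By p-value it ranked 84th of the 15425 tested genes.

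Border macrophages, which line vessels and meninges and carry CD11b, also express *Slc40a1*. Their 7 markers *Mrc1*, *Lyve1*, *Cd163*, *F13a1*, *Pf4*, *Ms4a7* and *Cbr2* were detected in all libraries. They summed to between 406 and 477 CPM in WT veh mice and to between 176 and 243 CPM in App veh mice. Of the 7 markers, 6 were downregulated in each of the strain comparisons, with a median log2 fold change of -1.04 under veh and -1.51 under BRICHOS. In WT BRICHOS mice the sum was between 535 and 655 CPM, above all WT veh mice, though no single marker passed the test, while *Slc40a1* stood at a log2 fold change of -0.09 (95% interval -0.23 to 0.04). The part of these cells in the lower *Slc40a1* level was not tested.

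**Figure D2:**
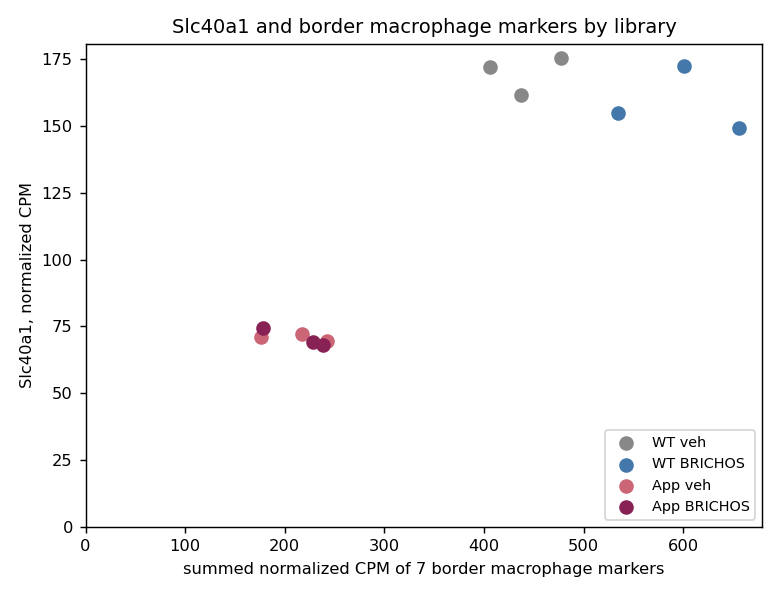
*Slc40a1* and the markers of border macrophages in the 12 libraries. The horizontal axis gives the summed normalized CPM of the 7 markers and the vertical axis the normalized CPM of *Slc40a1*, both linear from 0, with 1 point per mouse coloured by group. The 6 *App* NL-G-F mice lie at low values of both, and the WT BRICHOS mice lie to the right of the WT veh mice without lying higher.

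*Slc11a1* (ENSMUSG00000026177, chr1:74375195-74386062, plus strand) encodes NRAMP1, a transporter of iron and manganese in the phagosome membrane of macrophages. The WT veh mice had 247, 254 and 259 CPM and the App veh mice 488, 520.2 and 472 CPM. With rh Bri2 BRICHOS R221E the levels were 244, 227 and 241 CPM in WT and 516, 546 and 506 CPM in *App* NL-G-F. Every *App* NL-G-F library was far above every WT library. The log2 fold change under veh was 0.96 (SE 0.0535, 95% interval 0.84 to 1.08, edgeR adjusted p = 1.24e-07), or 1.95-fold. The 10 microglial markers moved less as a sum, from between 33300 and 36530 CPM in WT veh to between 32960 and 35340 CPM in App veh mice.

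*Slc11a2* (ENSMUSG00000023030, chr15:100387898-100425072, minus strand) encodes DMT1, the divalent metal transporter that releases iron from endosomes. It was measured at 37.8, 33.6 and 36.9 CPM in WT veh mice and at 47.9, 52.4 and 52.9 CPM in App veh mice. The groups did not overlap, and the log2 fold change was 0.50 (SE 0.0927, 95% interval 0.30 to 0.70, edgeR adjusted p = 0.00141). An annotated gene on the other strand, *Gm5475*, overlaps it, with at most 13 counts in any library.

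*Ftl1* (ENSMUSG00000050708, chr7:45457944-45459884, minus strand) had 1406, 1541 and 1405 CPM in WT veh mice and 1726, 1878 and 1823 CPM in App veh mice. All 3 *App* NL-G-F values were above the highest WT value. The log2 fold change was 0.32 (SE 0.0983, 95% interval 0.10 to 0.53, edgeR adjusted p = 0.0247). This call was lost when any 1 of 4 libraries was left out, with adjusted p = 0.0758 and 0.073 without WT mouse 1 or 3 and 0.0788 and 0.0552 without *App* NL-G-F mouse 2 or 3. The log2 fold change was between 0.29 and 0.31 in these 4 fits. On the other strand, *Gm10252* overlaps *Ftl1* and had between 21 and 135 counts per library.

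*Fth1* (ENSMUSG00000024661, chr19:9980598-9985098, plus strand) had 3745, 4816 and 3312 CPM in WT veh mice and 4163, 4159 and 4313 CPM in App veh mice. The WT mice enclosed all 3 *App* NL-G-F values, and the log2 fold change was 0.09 (95% interval -0.27 to 0.45, edgeR adjusted p = 0.693). The 7 oligodendrocyte markers summed to between 9668 and 16930 CPM in WT veh and between 3214 and 5635 CPM in App veh mice. Of the 7, 2 were called lower. Over the WT mice of both treatments, *Fth1* and this sum had the same order, and over the *App* NL-G-F mice they did not. The part of these cells in the *Fth1* values was not tested. The ratio of *Fth1* to *Ftl1* per kilobase was 1.05 ± 0.149 in WT veh mice and 0.9 ± 0.0398 in App veh mice (SD, n = 3). It was 0.872 ± 0.309 in WT BRICHOS and 0.934 ± 0.0359 in App BRICHOS mice, and all 4 groups overlapped. Together both chains took between 0.495 and 0.696% of all counts of a library. The table lists 14 further genes with Fth or Ftl symbols, of which 5 had counts, with 33 to 80 counts per library in sum. How reads shared between such copies were divided is not given in the sources used here.

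*Ncoa4* (ENSMUSG00000056234, chr14:32159865-32179855, plus strand) encodes the receptor that delivers ferritin to the lysosome, where its iron is released. Its level was 50.8, 50.7 and 52.3 CPM in WT veh mice and 43.1, 40.5 and 37.6 CPM in App veh mice. It was lower in all 3 *App* NL-G-F mice, with a log2 fold change of -0.34 (SE 0.0633, 95% interval -0.48 to -0.20, edgeR adjusted p = 0.00139).

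*Ireb2* (ENSMUSG00000032293, chr9:54863789-54912530, plus strand) encodes iron regulatory protein 2, which binds the hairpins printed above. Its levels were 81.3, 86.4 and 86.0 CPM in WT veh mice and 70.4, 72.5 and 78.9 CPM in App veh mice. The groups did not overlap, but the log2 fold change of -0.19 (SE 0.0732, 95% interval -0.35 to -0.03) missed the threshold with an edgeR adjusted p = 0.0567. It passed when the fit held the compared groups alone (adjusted p = 0.034). It also passed without *App* NL-G-F mouse 3 of the veh group (adjusted p = 0.036) or without mouse 2 or 3 of the App BRICHOS group (adjusted p = 0.0383 and 0.0246), which are not among the compared groups.

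*Tfrc* (ENSMUSG00000022797, chr16:32608920-32632794, plus strand) encodes the transferrin receptor. WT veh mice had 44.6, 44.8 and 40.6 CPM and App veh mice 46.7, 50.7 and 31.7 CPM. Mouse 3 of the *App* NL-G-F group was the lowest of the 6 and mouse 2 the highest, and the log2 fold change was -0.01 (95% interval -0.34 to 0.32, edgeR adjusted p = 0.967). Brain endothelium is known for *Tfrc*, and its 6 markers summed to between 579 and 649 CPM in WT veh and between 426 and 572 CPM in App veh mice, with 5 of the 6 lower.

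*Cp* (ENSMUSG00000003617, chr3:19957054-20009145, plus strand) encodes ceruloplasmin, the copper enzyme that oxidizes exported iron, and is known from astrocytes and the choroid plexus. It was measured at 39.2, 42.3 and 41.7 CPM in WT veh mice and at 56.8, 33.8 and 46.8 CPM in App veh mice. The *App* NL-G-F values lay on both sides of the WT values, and the log2 fold change was 0.16 (95% interval -0.35 to 0.66, edgeR adjusted p = 0.627). Astrocyte markers, 10 of 10 of which were upregulated, summed to between 449 and 640.2 CPM in WT veh and between 1472 and 4731 CPM in App veh mice. The 6 choroid plexus markers summed to between 862 and 3958 CPM and between 643 and 1981 CPM. An annotated gene on the other strand, *Hps3*, overlaps *Cp* and had between 1435 and 2802 counts per library, more than *Cp* itself, and its log2 fold change was -0.53 (edgeR adjusted p = 6.66e-06). The strand setting of the counting is not given in the sources used here.

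*Hmox1* (ENSMUSG00000005413, chr8:75093621-75100589, plus strand) encodes heme oxygenase 1, which opens the heme ring and frees its iron. It had 132, 169 and 122 CPM in WT veh mice and 139, 143 and 117 CPM in App veh mice. The groups overlapped, and the log2 fold change was -0.09 (95% interval -0.80 to 0.63, edgeR adjusted p = 0.853).

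**Figure D3:**
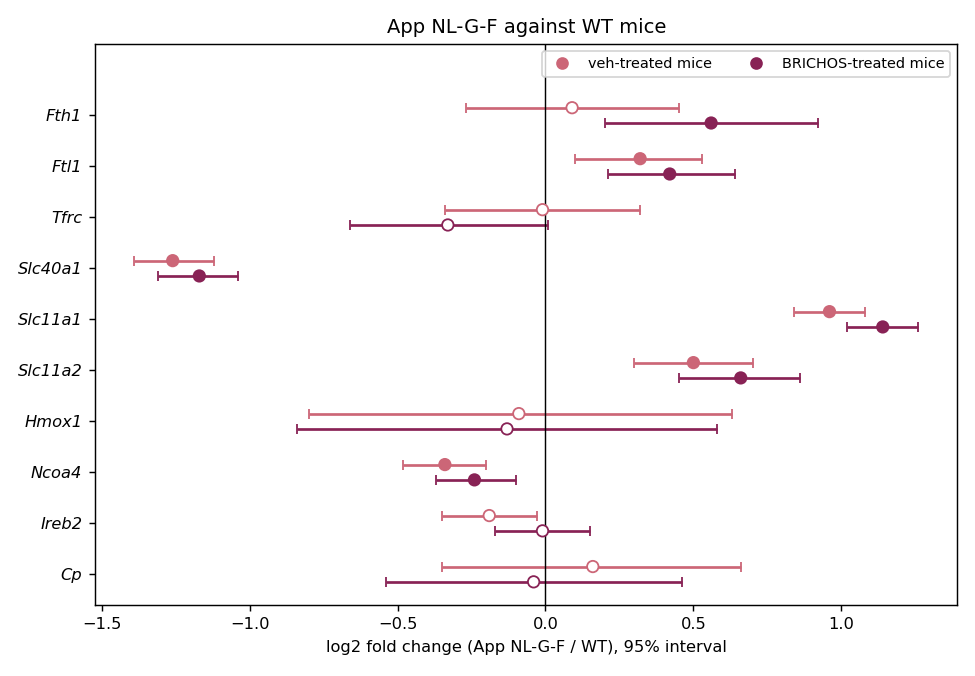
Difference between the strains for each of the 10 genes. The horizontal axis gives the log2 fold change of *App* NL-G-F against WT mice with its 95% interval, for veh-treated and for BRICHOS-treated mice, and filled points passed an adjusted p-value of 0.05 in edgeR. *Slc40a1* lies below -1 in both, *Slc11a1* near 1, and *Fth1* is filled in the BRICHOS-treated mice alone, at 0.56.

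The same strain difference was measured in BRICHOS-treated mice, which share no library with the veh-treated ones. Of the 10 genes, 6 were called, 4 upward and 2 downward, beside 42.5% of all 15425 tested genes, 20.8% upward and 21.8% downward. The median log2 fold change was -0.02 for the 10 genes and -0.04 for all genes. The 5 genes called under veh were called again in the same direction. Groups did not overlap for 7 of the 10 genes, against 51.7% of all genes, and 6 had an unadjusted p-value under 0.05, against 50.1%.

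*Slc40a1* was lower by a log2 fold change of -1.17 (SE 0.0616, edgeR adjusted p = 6.38e-08) and *Slc11a1* higher by 1.14 (SE 0.0536, adjusted p = 3.03e-08). *Slc11a2* had 35.5, 32.6 and 37.1 CPM in WT and 47.7, 60.7 and 57.6 CPM in *App* NL-G-F mice. It was higher in all 3 *App* NL-G-F mice, by 0.66 on the log2 scale (SE 0.0925, edgeR adjusted p = 0.000171). *Ncoa4* had 45.0, 47.5 and 47.3 CPM in WT and 41.4, 37.3 and 40.1 CPM in *App* NL-G-F mice, with a log2 fold change of -0.24 (SE 0.0633, edgeR adjusted p = 0.0111). In DESeq2's Wald test with only the compared groups, the *Ncoa4* value was -0.21 and was not called (adjusted p = 0.125).

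Both ferritin chains were upregulated in this comparison. *Ftl1* had 1308, 1592 and 1659 CPM in WT and 1891, 2281 and 1931 CPM in *App* NL-G-F mice, a log2 fold change of 0.42 (SE 0.0984, edgeR adjusted p = 0.00507). *Fth1* had 4161, 2923 and 2915 CPM in WT and 4621, 5690 and 4468 CPM in *App* NL-G-F mice, a log2 fold change of 0.56 (SE 0.164, edgeR adjusted p = 0.0163). The groups did not overlap for either chain, although the WT mouse 1 reached nearly the lowest *App* NL-G-F value of *Fth1*. The *Fth1* call was lost without WT mouse 2 (adjusted p = 0.0663), WT mouse 3 (0.0608) or *App* NL-G-F mouse 2 (0.0663), at log2 fold changes between 0.45 and 0.48. Oligodendrocyte markers summed to 15590 CPM in WT mouse 1, 6813 in mouse 2 and 4154 in mouse 3. In the *App* NL-G-F mice their sum was between 4497 and 6169 CPM, and 0 of the 7 were called. Their part in the *Fth1* difference was not tested.

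*Tfrc* was lower without overlap, at 48.8, 43.4 and 41.7 CPM in WT and 36.8, 39.4 and 30.6 CPM in *App* NL-G-F mice. Its log2 fold change of -0.33 (SE 0.151, 95% interval -0.66 to 0.01) did not pass the test (edgeR adjusted p = 0.105). Without App veh mouse 3 in the fit, *Tfrc* was called at -0.32 (adjusted p = 0.0226). The endothelial markers summed to between 491 and 701 CPM in WT and between 359 and 410.2 CPM in *App* NL-G-F mice, and 5 of the 6 were downregulated. Their part in the *Tfrc* values was not tested.

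*Ireb2*, *Cp* and *Hmox1* were not called, at log2 fold changes of -0.01, -0.04 and -0.13. *Ireb2* had 79.7, 77.7 and 82.9 CPM in WT and 77.9, 72.6 and 88.9 CPM in *App* NL-G-F mice, which enclosed the WT values. For *Hmox1*, 1 library stood apart: the *App* NL-G-F mice had 124, 325 and 122 CPM and the WT mice 245, 161 and 220.3 CPM. Without *App* NL-G-F mouse 2 the log2 fold change was -0.76 and passed the test (edgeR adjusted p = 0.00674).

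The genes with the profiles most like those of the called members were found by the root mean square difference of log2 CPM, centred on each gene's mean, over the 12 libraries. Fold changes close to those of the member follow from this choice and are given as description only. Among the nearest to *Slc40a1* were *Ggt5* (0.0877) and *Cdh23* (0.0912), which fell by 1.38 and 1.35 on the log2 scale in App veh mice. *Slc11a1* was nearest to *Mpeg1* (0.0522), which encodes perforin-2 of macrophages, *Sdf4* (0.0573) and *Lag3* (0.0576). These rose by 0.91, 1.03 and 0.95 on the log2 scale under veh. The nearest profiles to *Ftl1* were those of *Oaz1* (0.0476), *Eif5a* (0.0513) and *Ptpn18* (0.0559), and to *Slc11a2* those of *Tbc1d8* (0.0761), *Snapc1* (0.0763) and *Fam114a1* (0.0808). *Ncoa4* was nearest to *Eefsec* (0.0528), *Rnf167* (0.053) and *Zfp865* (0.0548).

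The next comparisons asked whether BRICHOS changed the 10 mRNAs. In *App* NL-G-F mice, 0 of the 10 were called by edgeR against veh, and 0 had an unadjusted p-value under 0.05. DESeq2's Wald test also called 0, with all libraries and with the compared groups. Of all 15425 tested genes, 1 was called, or 0.00648%, and 10.8% had an unadjusted p-value under 0.05. Groups did not overlap for 2 of the 10 genes, against 13.5% of all genes. These were the ferritin chains, both higher in all 3 treated mice, with log2 fold changes of 0.23 for *Fth1* (95% interval -0.13 to 0.58) and 0.17 for *Ftl1* (95% interval -0.05 to 0.38) and edgeR adjusted p-values of 0.686 and 0.599.

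The intervals were narrow for the strongest strain markers. *Slc40a1* stood at -0.01 (95% interval -0.14 to 0.13) and *Slc11a1* at 0.08 (95% interval -0.03 to 0.20) on the log2 scale in App BRICHOS against App veh mice, and both groups overlapped for each. *Slc11a2* stood at 0.12 (95% interval -0.08 to 0.32), *Ncoa4* at -0.03 (95% interval -0.17 to 0.11) and *Ireb2* at 0.11 (95% interval -0.05 to 0.27).

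*Tfrc* had the lowest p-value of the 10, at a log2 fold change of -0.27 (95% interval -0.61 to 0.06, edgeR adjusted p = 0.572). *Cp* was measured at 48.0, 69.9 and 33.2 CPM in the App BRICHOS mice, with a log2 fold change of 0.14 (95% interval -0.37 to 0.65). The astrocyte markers summed to between 680.2 and 1979 CPM in these mice. The widest interval was that of *Hmox1*, at 0.52 (-0.19 to 1.23), and without mouse 2 of the treated group the value was -0.10.

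In WT mice, 0 of the 10 genes were called with BRICHOS by edgeR, beside 0% of all genes, and 0 of the 10 had an unadjusted p-value under 0.05, against 11.4% of all genes. Groups did not overlap for 3 of the 10, against 17.5% of all genes. *Cp* was higher in all 3 treated mice, at 55.9, 47.3 and 52.5 CPM, with a log2 fold change of 0.34 (95% interval -0.17 to 0.84, edgeR adjusted p = 0.62). Choroid plexus markers summed to between 3273 and 6803 CPM in these mice, and 6 of the 6 had a higher mean than under veh, though none passed the test. *Ncoa4* was lower in all 3, at -0.14 (95% interval -0.28 to 0.00, adjusted p = 0.439), and so was *Slc11a1*, at -0.09 (95% interval -0.21 to 0.02, adjusted p = 0.537).

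*Hmox1* had the largest value in WT BRICHOS mice, 0.56 on the log2 scale (95% interval -0.15 to 1.27, edgeR adjusted p = 0.546). The treated mice 1 and 3 were above all WT veh mice and mouse 2 was within their range. DESeq2's Wald test over these groups alone called it at 0.56 (adjusted p = 0.0327), 1 of the 10 genes, while DESeq2 with all libraries called 0. The genes nearest to *Hmox1* in profile, chosen after its values were seen, were *Gadd45g* (0.192), *Klf4* (0.197) and *Bag3* (0.199), a growth arrest gene, a transcription factor and a co-chaperone of Hsp70 that are known to be induced by stress. In the App BRICHOS mouse 2, with the highest *Hmox1* level of all 12, *Klf4* was at 228 CPM and *Bag3* at 96.2 CPM, each also the highest of the 12, while *Gadd45g* at 33.0 CPM was below the WT BRICHOS mouse 1 at 35.0 CPM. In the 2 other App BRICHOS mice *Klf4* had 108 and 125 CPM and *Bag3* 41.2 and 44.5 CPM. None of the 3 genes was called in any of the 4 comparisons. They were chosen by likeness to *Hmox1* over the same 12 libraries, so that choice favours genes that share its peak in mouse 2. The cause of that peak was not tested.

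**Figure D4:**
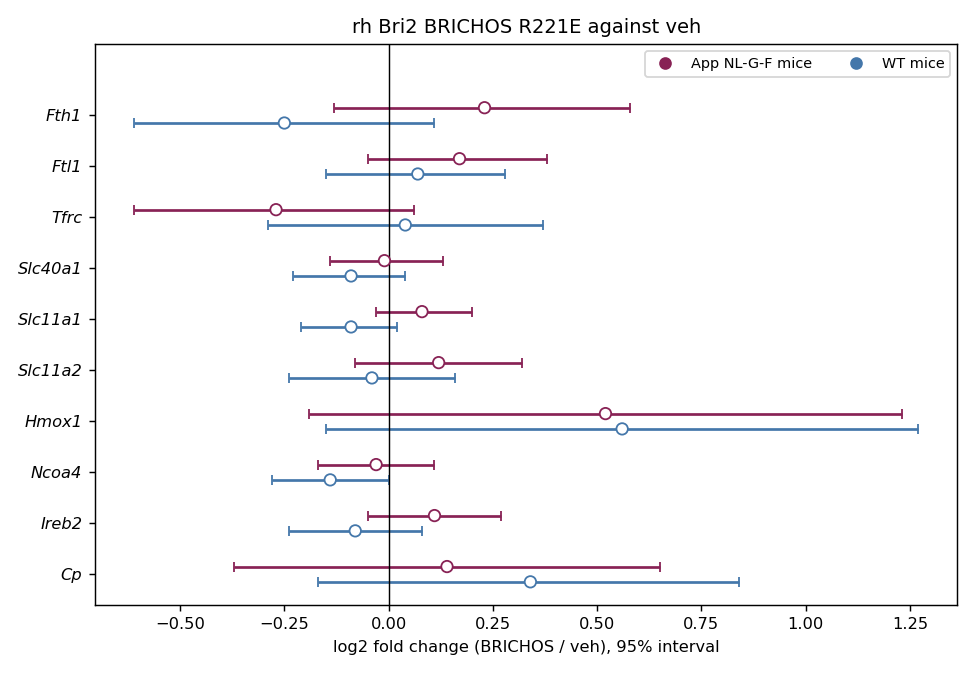
Effect of rh Bri2 BRICHOS R221E on each of the 10 genes. The horizontal axis gives the log2 fold change of treated against veh-treated mice with its 95% interval in each strain, and open points did not pass an adjusted p-value of 0.05 in edgeR. All 20 points are open, with the narrowest intervals for *Slc11a1*, *Slc40a1* and *Ncoa4* and the widest for *Hmox1*.

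Whether the treatment acted differently in the strains was tested as the difference of both effects. By edgeR 0 of the 10 genes were called, and 0 by DESeq2, beside 0.00648% of all genes. At an unadjusted p-value under 0.05 there was 1 gene, *Slc11a1*, against 14.8% of all genes. Its difference was 0.18 on the log2 scale (SE 0.075, edgeR adjusted p = 0.308). *Fth1* had a difference of 0.47 (95% interval -0.03 to 0.98, edgeR adjusted p = 0.366), from -0.25 in WT to 0.23 in *App* NL-G-F mice. The same test covers the strain differences under both treatments, so the call of *Fth1* in treated mice alone was not shown to differ between treatments.

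Further genes of iron handling were taken from 4 lists. Their counts stand beside the 37% of all tested genes called under veh and the 42.5% called under BRICHOS, and their medians beside -0.02 and -0.04 on the log2 scale. With the astrocyte score as a covariate, 6 genes of all lists beyond the 10 members were called under veh in place of 24, beside 2049 in place of 5710 of all tested genes, and 36 in place of 35 under BRICHOS. The score was 4.57 to 5.1 in WT veh and 6.18 to 7.82 in App veh mice. The covariate was fitted beside a mean for each group, so its slope rested on differences within groups. Without overlap between the veh groups, the adjusted strain difference carries that slope across a gap. A call lost with it assigns no gene to astrocytes. Of 24 genes of other uptake, export and sensing, 19 were tested. Under veh, 4 were higher and 3 lower in *App* NL-G-F mice, and under BRICHOS 4 were higher and 9 lower. The medians were -0.04 and -0.24 on the log2 scale. *Cybrd1*, a membrane ferric reductase, rose by 2.77 (edgeR adjusted p = 0.000262), from 0.8 ± 0.375 to 5.41 ± 1.73 CPM (SD, n = 3), under veh. *Steap3*, the ferric reductase of endosomes, rose by 0.92 on the log2 scale under veh. *Slc39a14*, a carrier of iron not bound to transferrin, rose by 0.57 there. Under BRICHOS, *Steap3* was at 4.575 ± 0.301 CPM in WT and 4.292 ± 0.952 CPM in *App* NL-G-F mice. *Cybrd1* was at 1.085 ± 0.272 and 2.204 ± 0.759 CPM in these groups, and *Slc39a14* at 23.18 ± 0.658 and 31.07 ± 1.36 CPM. The part of other cells in these values was not tested. *Hfe*, a partner of the transferrin receptor, fell by 0.45 under veh, from 109 ± 8.68 to 79.9 ± 1.95 CPM.

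In the BRICHOS-treated mice the called genes of that list with the largest changes among those whose groups did not overlap were *Scara5*, a ferritin receptor, and the metalloreductases *Steap4*, *Steap1* and *Steap2*. They were lower in *App* NL-G-F mice by log2 fold changes of -2.85, -2.63, -2.38 and -2.25. *Lcn2*, which binds the iron carriers of bacteria and is abundant in neutrophils, was also called lower, at -2.90 with overlapping groups. In WT BRICHOS mice, levels were low for *Scara5*, at 2.65 ± 1.26 CPM, and for *Steap4*, at 2.66 ± 2.18 CPM. *Steap1* had 5.63 ± 2.25 CPM and *Steap2* 23.8 ± 5.85 CPM in these mice. The markers of the choroid plexus were higher in WT BRICHOS mice than in the other groups in sum, apart from 1 WT veh mouse, and 6 of 6 were lower in App BRICHOS mice. Their part in these 4 genes was not tested. *Aco1*, the other iron regulatory protein, and *Fbxl5*, which sends *Ireb2* protein to degradation, were called in neither strain comparison, with log2 fold changes between -0.04 and 0.14.

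Of 21 genes of heme synthesis, transport and breakdown, 20 were tested. Under veh 2 were higher and 2 lower, and under BRICHOS 3 were higher and 3 lower, with medians of -0.10 and 0.01. *Alas1*, the rate-limiting enzyme of heme synthesis outside red cells, rose by 0.56 under veh, from 78.5 ± 3.64 to 116 ± 6.39 CPM, and by 0.70 under BRICHOS on the log2 scale. *Blvra*, which reduces the biliverdin made by heme oxygenase, rose by 0.45 and *Ppox*, a late enzyme of heme synthesis, fell by 0.29 under veh. *Cd163*, the hemoglobin scavenger receptor, fell by 1.06 and 1.61, and is also among the border macrophage markers above. *Flvcr2* fell by 1.49 under BRICHOS, from 5.83 ± 0.471 to 2.07 ± 0.688 CPM. In that comparison 5 of the 6 endothelial markers were lower, with a median of -1.42. Their part in the *Flvcr2* values was not tested.

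Of 20 genes of mitochondrial iron and iron-sulfur clusters, 18 were tested. Under veh 5 were higher and 1 lower, and under BRICHOS 6 were higher and 3 lower, with medians of 0.17 and 0.12. *Slc25a37*, mitoferrin 1, which brings iron into mitochondria, fell by 0.74 on the log2 scale in both, from 127 ± 5.01 to 76.2 ± 4.72 CPM under veh (edgeR adjusted p = 3.81e-06). *Hscb*, a co-chaperone of iron-sulfur cluster transfer, rose by 0.95 and 1.11. *Abcb8* and *Lyrm4* rose by 0.38 and 0.34 under veh. Under BRICHOS *Glrx5*, a glutaredoxin of cluster transfer, rose by 0.49 and *Cisd1*, mitoNEET, fell by 0.42.

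Of 11 genes of NRF2, the transcription factor that drives *Hmox1* and both ferritin genes under oxidative stress, all were tested. Under veh 5 were higher and 1 lower, and under BRICHOS 4 were higher and 2 lower, with medians of 0.17 and 0.13. *Nfe2l2*, NRF2 itself, rose by 1.03 under veh, from 304 ± 5.21 to 622 ± 66.8 CPM, and by 1.16 under BRICHOS. *Srxn1*, a reductase of peroxiredoxins, rose by 1.19 and 1.26, and *Sqstm1*, the autophagy receptor p62, by 0.93 and 1.20. *Slc7a11*, the cystine importer, is also known from astrocytes and rose by 2.35 under veh, where the astrocyte markers given beside *Cp* had a median of 2.36 on the log2 scale. With the astrocyte score as a covariate, 1 gene of the NRF2 list was called under veh in place of 6, beside 2049 in place of 5710 of all tested genes. The score did not overlap between the veh groups, and the lost calls assign none of these genes to astrocytes. *Slc7a11* was at 52.6 ± 23.9 CPM in App veh and 21.9 ± 4.87 CPM in App BRICHOS mice, and the part of astrocytes in these values was not tested. *Nqo1*, a quinone reductase, fell by 1.74 under BRICHOS, from 3.35 ± 0.813 to 1.01 ± 0.332 CPM, with 10 to 17 counts in App BRICHOS libraries. Under veh, *Nqo1* was at 2.20 ± 1.44 CPM in WT and 2.43 ± 0.531 CPM in *App* NL-G-F mice. *Hmox1* was not among the genes called in either comparison. *Epas1*, another mRNA known for an iron-responsive element, fell by 1.31 under BRICHOS, where *Alas2* was also called lower. Endothelium is known for *Epas1*, and 5 of its 6 markers were lower in that comparison, with a median of -1.42. *Alas2* is itself a gene of the red cell lineage, of whose 5 tested markers, *Alas2* included, 4 were lower, with a median of -1.53. Their part in both genes was not tested.

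Against veh, BRICHOS changed 0 of the genes of these lists in either strain by edgeR. The *App* NL-G-F groups had 9 genes of the lists at an unadjusted p-value under 0.05 and the WT groups 6. Of all tested genes, 10.8% and 11.4% were under that value. DESeq2's Wald test with all libraries called 2 in *App* NL-G-F and 1 in WT mice.

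**Figure D5:**
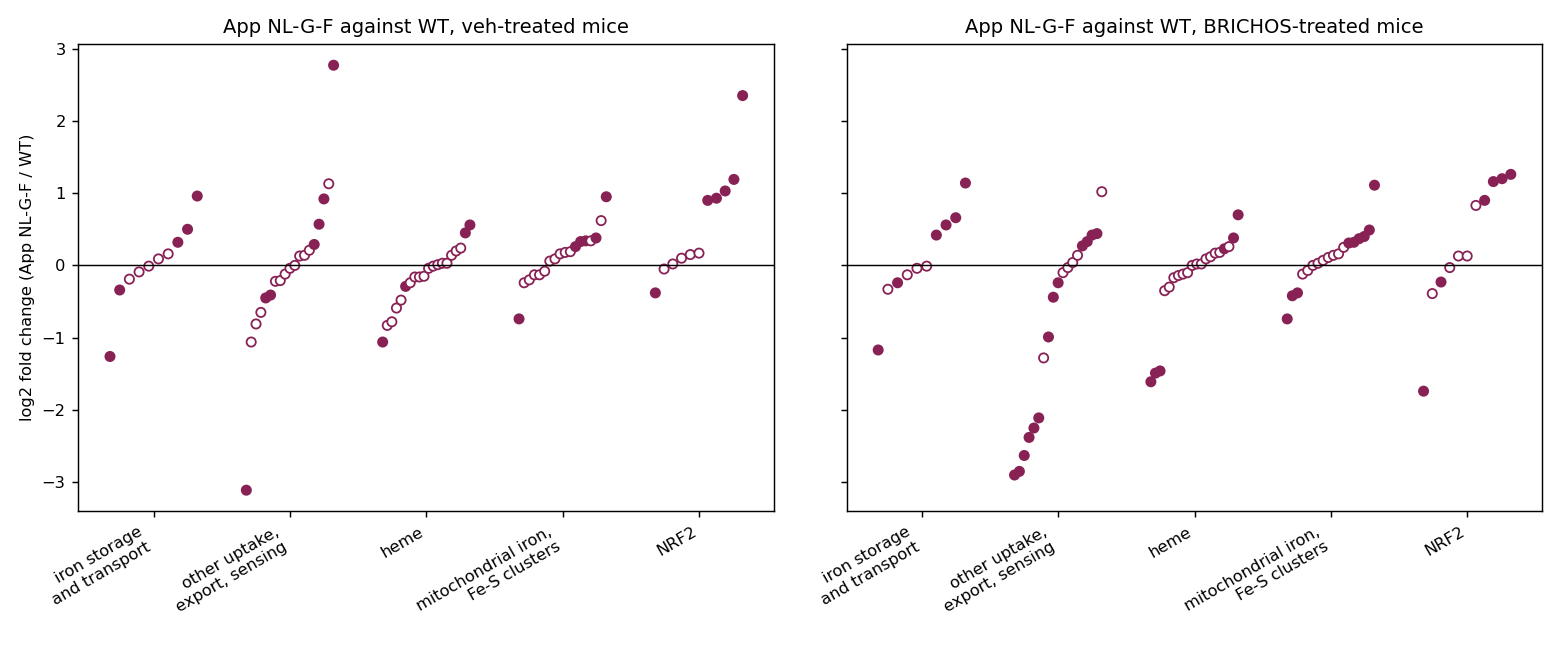
Strain difference of the 10 iron genes and of all tested genes of 4 further lists. Each point is 1 gene, placed by its log2 fold change of *App* NL-G-F against WT mice on the vertical axis and ordered within its list, in veh-treated mice on the left and BRICHOS-treated mice on the right, and filled points passed an adjusted p-value of 0.05 in edgeR. Filled points lie on both sides of 0 in each list, and NRF2 genes reach 2.35 under veh.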

How the data were processed

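RNA of CD11b-positive cortical cells was sequenced from 12 mice as stranded poly(A) libraries. The authors used STAR with the GRCm38 genome and featureCounts to count reads per gene, and the counts were deposited as they were, not normalized. The submitters' processing notes name STAR 2.6.1d and featureCounts 1.5.1, and the paper's methods give another STAR release. The strand setting and the treatment of reads shared between genes are not given in the sources used here. Total counts were between 12433402 and 17889654, so that 3 counts, taken as the detection floor, correspond to 0.169 to 0.227 normalized CPM. Such floors cover counting error only.

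Symbols, exons and UTRs came from GENCODE M21 on GRCm38, which named 55141 of the 55487 genes, and 26314 genes had no count in any library. The libraries were grouped by their titles. The function filterByExpr (minimum count 10) chose the genes to be tested. A quasi-likelihood fit with TMM factors and a mean for each group was made over all 12 libraries in edgeR 4.0.16 (R 4.3.3) and tested by glmQLFTest, with Benjamini-Hochberg adjustment over all tested genes. Profiles were compared on log2 CPM with a prior count of 2. The named genes are the 10 members, up to 4 called genes without overlap per list and comparison with the largest fold change, and the 3 nearest profiles of each member called between the veh groups. *Aco1*, *Fbxl5*, *Alas2*, *Lcn2*, the overlapping genes and the neighbours of *Hmox1* were named outside that rule, after their values were seen. Some genes that the rule names, and the summary of a short list of other mRNAs with an iron-responsive element, are not reported here, though counts of list genes include them. Members and lists were chosen with earlier results of these data known.

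The alternatives were DESeq2 size factors, DESeq2 1.42.0 with all libraries or the compared groups, edgeR with the compared groups, no filter or at least 10 counts in every library, a log2 cutoff of 1, unadjusted p-values, a block for the replicate number, a covariate for the astrocyte score and the omission of each library. The fit was also run on simulated data, and the outcome is not reported here. Figures were drawn with Python 3.11.15 and matplotlib 3.10.9. Protein sequences were not used here.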

Additional observations from a re-analysis of the deposited data

How the results depend on the processing

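With 3 mice per group, small differences cannot be resolved, and counts say nothing of protein or iron. Of 980 member values under an alternative, 908 kept their direction and their side of the threshold, 53 changed sign, 9 lost and 10 gained a call. *Slc40a1*, *Slc11a1* and *Slc11a2* kept their calls in both strain comparisons under each of 20 alternatives of fit, scaling, filter and left-out library, with log2 fold changes of *Slc40a1* from -1.29 to -1.13 under veh and from -1.21 to -1.11 under BRICHOS, and of *Slc11a1* from 0.92 to 0.99 and from 1.11 to 1.17. *Ftl1* under veh also lost its call with the astrocyte score as a covariate (0.33, adjusted p = 0.262). Without the covariate the log2 fold change was 0.32. That score did not overlap between the veh groups, and the lost call does not assign *Ftl1* to astrocytes. The causes of these changes were not tested.

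With a cutoff of 1 on the log2 fold change, 1 member and 6 list genes remained called under veh and 2 and 15 under BRICHOS, by construction of the cutoff. *Slc11a1* (0.96) under veh and *Slc11a2* in both comparisons were below it. With the astrocyte score, 6 list genes were called under veh in place of 24, beside 2049 in place of 5710 of all tested genes. For App BRICHOS against App veh, list genes called were 2 by DESeq2 with all libraries, 1 by DESeq2 with the compared groups, 1 without a filter, 9 at an unadjusted p-value under 0.05, and 0 to 2 when a library was left out, the highest without App veh mouse 3. For WT BRICHOS against WT veh they were 1 and 2 by DESeq2 with all libraries and with the compared groups and 6 at an unadjusted p-value under 0.05, where DESeq2 with the compared groups also called 1 member. For the difference between strains 1 member passed at an unadjusted p-value under 0.05. Of all tested genes, 10.8%, 11.4% and 14.8% had an unadjusted p-value under 0.05 in these 3 comparisons, in the order given.

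Signs changed in values that were not called. *Ireb2* under BRICHOS was 0.01 with DESeq2 size factors, 0.02 in both DESeq2 tests, 0.0017 with the compared groups and with the astrocyte score, and 0.0035 without a filter. *Slc40a1* in App BRICHOS against App veh was 0.01 with DESeq2 size factors and with DESeq2 over all libraries. With the astrocyte score, *Hmox1* was 0.72 under veh, *Cp* was 0.04 under BRICHOS, *Slc11a2*, *Hmox1*, *Ncoa4* and *Cp* were -0.02, -0.06, 0.09 and -0.13 in App BRICHOS against App veh, and the differences between strains of *Slc40a1* and *Slc11a2* were -0.01 and -0.02.

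Leaving out 1 library gave these ranges. Between the strains under veh they were -0.02 to 0.25 for *Fth1*, -0.14 to 0.17 for *Tfrc*, -0.18 to 0.06 for *Hmox1* and -0.03 to 0.33 for *Cp*, and under BRICHOS -0.76 to 0.11 for *Hmox1*, -0.08 to 0.06 for *Ireb2* and -0.35 to 0.19 for *Cp*. For App BRICHOS against App veh they were -0.04 to 0.02 for *Slc40a1*, -0.10 to 0.76 for *Hmox1*, -0.08 to 0.03 for *Ncoa4* and -0.16 to 0.37 for *Cp*. For WT BRICHOS against WT veh they were -0.0012 to 0.16 for *Ftl1*, -0.03 to 0.09 for *Tfrc* and -0.09 to 0.01 for *Slc11a2*. For the difference between strains they were -0.67 to 0.20 for *Hmox1* and -0.50 to 0.03 for *Cp*.

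Libraries of different groups share replicate numbers but come from different mice. Across genes, the deviations of 2 libraries with the same number, each taken from the mean of its group, correlated between 0.0564 and 0.174 in the veh groups and between -0.0148 and 0.218 in the BRICHOS groups, and not every pair was above 0.1 in any comparison. With the replicate number as a block, 6 members were called under veh and 7 under BRICHOS in place of 5 and 6, by the addition of *Ireb2* (-0.20, adjusted p = 0.0237) and *Tfrc* (-0.33, adjusted p = 0.0263), and 25 and 31 list genes in place of 24 and 35. The block changed no other member's call.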
